A study of Homo sapiens with 6 samples.

Results

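Collagens are major proteins of the extracellular matrix. The count table was searched for every gene name of the form COL, a type number, A and a chain number. The search found 44 collagen chain genes among 60835 distinct gene names. They fall into 11 fibrillar genes (types I, II, III, V, XI, XXIV and XXVII), 6 genes of the basement membrane collagen type IV, 5 type VI genes and 22 genes of other types. The cells were HEY, an established human ovarian cancer line, and RNA came from 3 libraries with a control siRNA (siNC) and 3 with an siRNA against CCNL2 (siCCNL2). CCNL2 encodes cyclin L2, a cyclin with roles in transcription and splicing. The treatment protocol reads alike for all 6 libraries and gives 48 h with the CCNL2 siRNA, so the groups rest on the genotype in the labels, and the 48 h of the controls is taken over from that text. The siRNAs act by transient transfection of 1 cell line, and the labels do not state that replicates were independent cultures. The p-values therefore reflect how far these 6 libraries scatter, and that scatter may be technical.

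Every collagen molecule is a triple helix of 3 chains, either copies of 1 gene product or a fixed mixture of several. Fibrillar collagens form the rope-like fibrils of connective tissue, type IV forms the sheet-like network of basement membranes, and type VI forms beaded microfilaments at the border between cells and matrix. Because mixed molecules need their chains together, the comparison between siCCNL2 and siNC was made chain by chain and as ratios between chains of 1 type. In tumours of the ovary, collagens come from cancer cells as well as from stroma, and HEY is a culture of cancer cells alone.

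Total counts ran from 13596286 to 18095529 per library. CCNL2 itself stood at 258 ± 10.7 CPM in siNC and 190 ± 11.2 CPM in siCCNL2 (mean ± SD, n = 3 each), where CPM is a gene's count relative to its library's total, per mega-read, after scaling for library composition. CCNL2 was lower in all 3 siCCNL2 libraries, with a log2 fold change of -0.44 (SE 0.0439). Its p from the quasi-likelihood test of edgeR, after Benjamini-Hochberg adjustment over all tested genes, was 2.15e-08, and all adjusted p-values come from that test. Of 8 markers of ovarian carcinoma epithelium 7 reached a mean of 1 on the authors' length-scaled score, a TPM-like value, and their summed score ran from 3032 to 3078 in siNC and from 2261 to 2352 in siCCNL2. All 5 mesenchymal markers reached that level, led by VIM (1702 in siNC and 1711 in siCCNL2). Of 6 fibroblast markers 2 did, DCN was at 0 in all 6 libraries, and the sum ran from 13.03 to 13.4 in siNC and from 7.56 to 10.1 in siCCNL2. Of 4 endothelial markers 2 did, mainly CDH5 (85.3 and 35.0), with sums of 85.0 to 89.1 and 33.3 to 40.5. None of 4 leukocyte markers reached it (sums of at most 1.68). Epithelial, fibroblast and endothelial sums thus moved with the groups, and their part in the collagen results was not tested.

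HEY cells expressed a restricted set of collagens, dominated by type VI and type IV. Summed over all 44 genes, the length-scaled score was 1658, 1688 and 1668 in the siNC libraries and 1478, 1379 and 1487 in the siCCNL2 libraries. The 3 siCCNL2 sums were all below the 3 siNC sums, a mean change of -13.3%. Type VI genes made up 60.9% of the siNC sum and 56.4% of the siCCNL2 sum. Type IV genes made up 26.6% and 28.6%, fibrillar genes 5.48% and 6.70%, and the other types 7.07% and 8.33%. By class, the type VI sum went from 1017 ± 13.2 to 816 ± 34.6 and the type IV sum from 444 ± 7.37 to 414 ± 15.6, without overlap between groups. The fibrillar sum (91.6 ± 2.62 and 97.0 ± 3.15) and the sum of other types (118 ± 3.30 and 121 ± 7.56) overlapped between groups. In CPM, which is not per length, neither overlapped: the fibrillar sum was 222 ± 5.07 and 235 ± 2.80, and that of other types 287 ± 8.38 and 315 ± 11.1. Without its most abundant chain, the fibrillar score (44.7 and 48.7 without COL27A1) was higher in siCCNL2 and that of other types (77.7 and 69.4 without COL12A1) lower, again without overlap. These sums hide chains that moved in opposite directions, as the following paragraphs show.

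On the same per-length scale the most abundant chains in siNC were COL6A1 (535), COL6A2 (480), COL4A2 (293) and COL4A1 (122). COL27A1 (46.9), a fibrillar collagen, and COL12A1 (40.5), which binds to the surface of fibrils, came next. COL13A1 (26.8) and COL4A5 (25.7) did not differ beyond their spread, and neither did COL18A1 (22.5) and COL5A2 (22.2), nor COL5A1 (12.4) and COL17A1 (12.1). The classical fibrillar chains of connective tissue were scarce. COL1A1, the main chain of type I collagen, scored 5.92 in siNC, while COL1A2, its partner in the type I heterotrimer, scored 0.0952 and COL3A1, the type III chain, 0.0683.

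**Figure D1:**
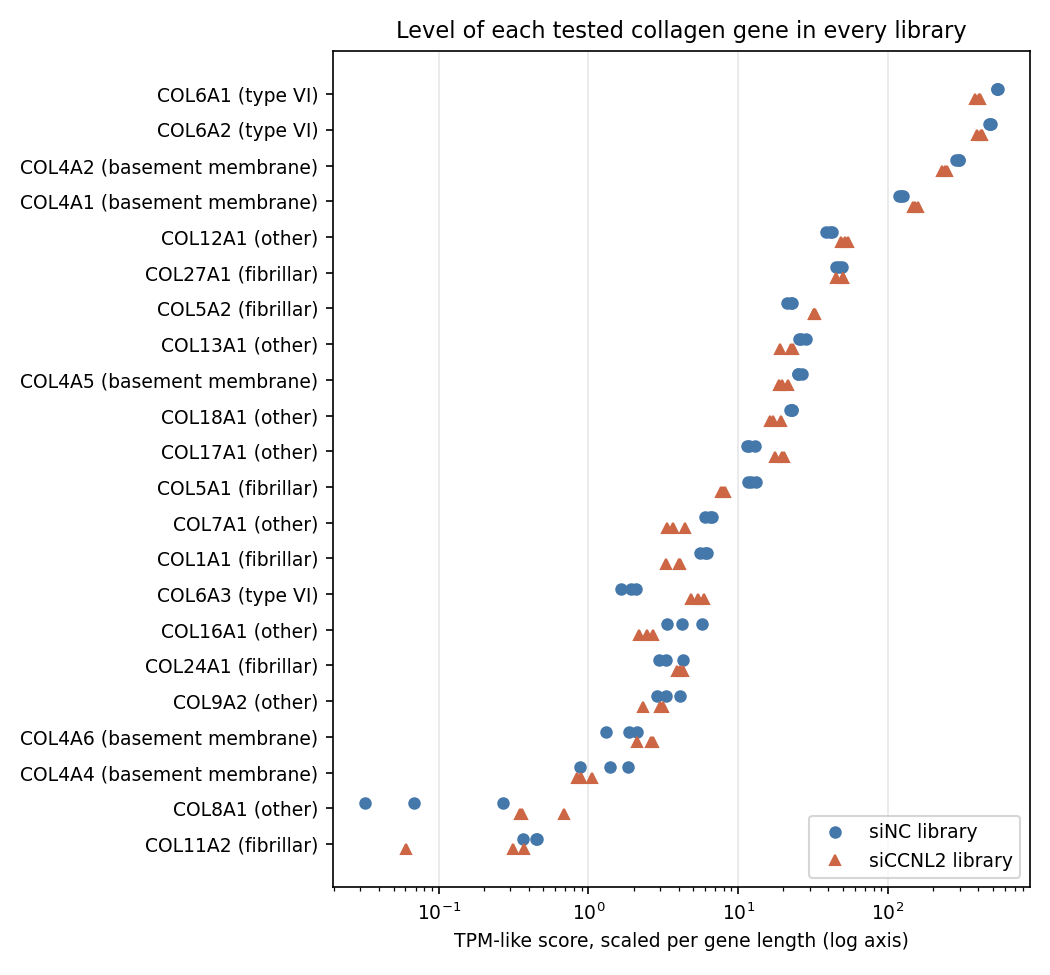
Length-scaled score of the 22 tested collagen genes (log axis) in each siNC library (circles) and siCCNL2 library (triangles), ordered by the higher group mean. COL6A1 and COL6A2 sit highest and COL8A1 and COL11A2 lowest, and for COL6A3 all 3 siCCNL2 libraries lie to the right of all 3 siNC libraries.

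Of the 44 genes, 22 passed the count filter and were tested in a fit over 15346 genes. Of these 22, 7 rose, 10 fell and 5 were not called at an adjusted p under 0.05, which is 77.3% called. Across all tested genes 33.6% were called, 17.2% higher and 16.5% lower. The share of called genes grows with expression: among genes of at least 5 CPM on average, a limit chosen after the data were seen, 43.4% of 10625 genes and 15 of 17 collagen genes were called. At 20 CPM or more it was 49.3% of 7510 genes and 11 of 12 collagen genes. The groups did not overlap for 17 of the 22 collagen genes, against 43.9% of all tested genes. The median log2 fold change of the 22 was -0.28 and that of all tested genes was 0.00232. The members that passed the filter are not all collagen genes, and COL8A1 reached the filter in siCCNL2 alone. RNA here comes from cells in bulk, so a change of expression per cell and a change in how many cells express a gene cannot be told apart.

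**Figure D2:**
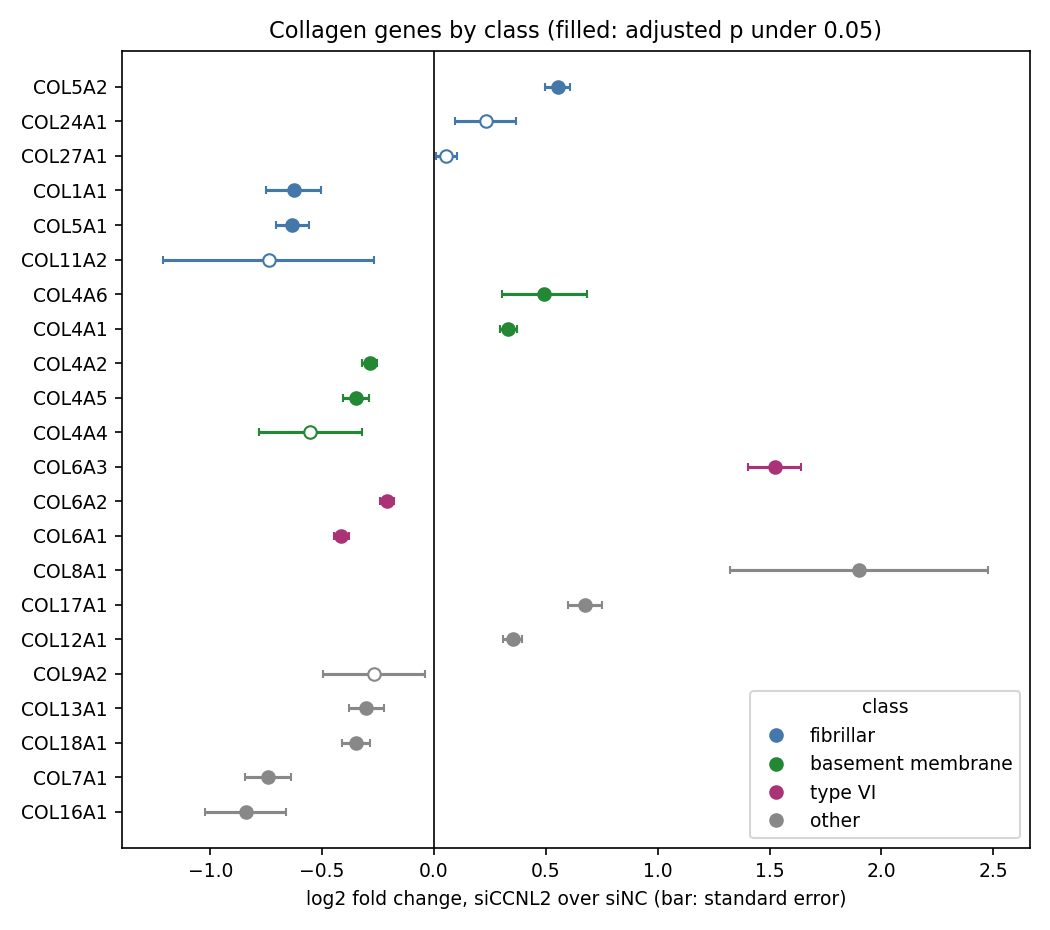
Log2 fold change (siCCNL2 over siNC) of the 22 tested collagen genes with its standard error, coloured by class, with filled points for called genes. Each class holds genes on both sides of 0, from COL16A1 at -0.84 to COL8A1 at 1.90.

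Type VI collagen showed the sharpest divergence between chains. COL6A3, the largest chain, whose long end carries most of the globular domains, rose, while COL6A1 and COL6A2, the short chains it assembles with, fell. COL6A3 (chromosome 2, 237324003 to 237414328, minus strand, GRCh38) measured 5.60, 6.56 and 7.20 CPM in siNC and 18.3, 17.1 and 20.1 CPM in siCCNL2. All 3 siCCNL2 libraries were above all 3 siNC libraries, with a log2 fold change of 1.52 (SE 0.118, adjusted p = 3.08e-10), or 2.88-fold. COL6A1 (chromosome 21, 45981770 to 46005050, plus strand) measured 721, 736 and 732 CPM in siNC and 543, 534 and 566 CPM in siCCNL2. It fell in every siCCNL2 library (log2 fold change -0.41, SE 0.0328, adjusted p = 4.51e-10). COL6A2, its neighbour on chromosome 21 (46098112 to 46132848, plus strand), measured 526, 542 and 539 CPM in siNC and 467, 453 and 470 CPM in siCCNL2. Its groups did not overlap, and the fall was smaller (log2 fold change -0.21, SE 0.0331, adjusted p = 2.06e-05).

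The level of COL6A3 was far below that of its partners in both groups. Per length, the COL6A3 score was 0.352% ± 0.0413 of the COL6A1 score in siNC and 1.35% ± 0.0704 in siCCNL2 (SD, n = 3 each). COL6A5 and COL6A6, chains related to COL6A3 that can take its place in some tissues, were too low to test, with 3 and 3 reads over the siNC libraries and 1 and 14 over the siCCNL2 libraries.

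The promoters of COL6A2 and COL6A3 are shown because these chains of 1 molecule moved in opposite directions. Both are RefSeq windows (GRCh38.p14) of 250 bases before and 50 after the start, 5′ to 3′ on the gene's strand. COL6A2 lies at chr21:46097862-46098161 (plus strand) and COL6A3 at chr2:237414115-237414414 (minus strand). Capitals mark the GC box GGGCGG and the CCAAT box, searched on both strands.
COL6A2: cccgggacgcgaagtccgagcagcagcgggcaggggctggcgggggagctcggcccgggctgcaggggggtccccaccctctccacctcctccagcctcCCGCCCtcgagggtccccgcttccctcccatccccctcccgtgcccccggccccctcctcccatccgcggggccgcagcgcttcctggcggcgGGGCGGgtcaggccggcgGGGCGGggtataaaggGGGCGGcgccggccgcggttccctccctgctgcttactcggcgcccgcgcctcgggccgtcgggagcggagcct
COL6A3: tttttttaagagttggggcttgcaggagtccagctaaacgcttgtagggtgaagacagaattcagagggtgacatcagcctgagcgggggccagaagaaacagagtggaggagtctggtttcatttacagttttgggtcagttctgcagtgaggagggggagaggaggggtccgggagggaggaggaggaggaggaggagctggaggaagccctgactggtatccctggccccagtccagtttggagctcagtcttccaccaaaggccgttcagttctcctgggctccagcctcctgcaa
The COL6A2 window had 36 CpG dinucleotides, 79.3% G or C, 4 GC boxes and a TATAAA. The COL6A3 window had 4 CpG dinucleotides, 56.3% G or C and neither box. A match describes letters in the window only.

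In type IV collagen the members of the head-to-head gene pair COL4A1 and COL4A2 also moved apart. Those of COL4A5 and COL4A6 did so too, but with a marginal call for COL4A6. In the remaining pair, COL4A4 and COL4A3, both group means were lower in siCCNL2, with COL4A4 not called and COL4A3 not tested. COL4A1 and COL4A2 encode the chains of the most widespread type IV molecule, which takes up COL4A1 chains and COL4A2 chains together. COL4A1 measured 258, 248 and 268 CPM in siNC and 318, 320 and 336 CPM in siCCNL2. It was higher in all 3 siCCNL2 libraries (log2 fold change 0.33, SE 0.0385, adjusted p = 2.49e-07). COL4A2 measured 594, 616 and 631 CPM in siNC and 498, 493 and 518 CPM in siCCNL2, lower in all 3 (log2 fold change -0.29, SE 0.0343, adjusted p = 3.81e-07).

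COL4A5 and COL4A6, on chromosome X, encode chains of a type IV network found beneath some epithelia. COL4A5 measured 52.9, 56.4 and 54.0 CPM in siNC and 45.0, 41.0 and 41.8 CPM in siCCNL2, a fall without overlap (log2 fold change -0.35, SE 0.0590, adjusted p = 5.05e-05). COL4A6 measured 4.6, 2.84 and 4.13 CPM in siNC and 5.64, 6.10 and 4.63 CPM in siCCNL2. The groups touched closely, at 4.6 and 4.63 CPM, and the call was marginal (log2 fold change 0.49, SE 0.190, adjusted p = 0.048). COL4A6 lost its call under 10 of 16 alternatives, among them the omission of siNC replicate 2 (log2 fold change 0.32, adjusted p = 0.24), siNC replicate 3 (adjusted p = 0.0613), siCCNL2 replicate 1 (0.107) and siCCNL2 replicate 2 (0.147), while its direction stayed the same in all 16. COL4A4, a chain of the kidney filter's basement membrane, measured 5.89, 4.48 and 2.88 CPM in siNC and 2.68, 2.98 and 3.43 CPM in siCCNL2. Its groups overlapped through siNC replicate 3 and it was not called (log2 fold change -0.55, adjusted p = 0.0668), although it passed without that library (-0.78, adjusted p = 0.00688) and without a count filter (adjusted p = 0.0497). Its head-to-head partner COL4A3 had 12, 13 and 10 reads in siNC and 7, 5 and 4 in siCCNL2, too few to pass the filter.

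These 3 gene pairs are divergent, with a stretch of DNA between the 2 RefSeq starts of each pair. The RefSeq starts of COL4A1 (chromosome 13, 110307157, minus strand) and COL4A2 (110307284, plus strand) have 126 bases between them, and those of COL4A6 and COL4A5 have 379. The stretches that both promoter windows of a pair share are shown for the pairs whose chains moved apart, on the plus strand, with the same boxes in capitals. The first is chr13:110307108-110307333 (226 bases) and the second chrX:108439588-108439708 (121 bases), both of GRCh38.p14.
COL4A1 and COL4A2: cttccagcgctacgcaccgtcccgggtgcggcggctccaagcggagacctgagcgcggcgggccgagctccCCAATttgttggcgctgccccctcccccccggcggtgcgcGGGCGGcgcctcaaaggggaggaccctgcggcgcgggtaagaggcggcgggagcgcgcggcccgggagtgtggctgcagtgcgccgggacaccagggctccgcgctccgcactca
COL4A6 and COL4A5: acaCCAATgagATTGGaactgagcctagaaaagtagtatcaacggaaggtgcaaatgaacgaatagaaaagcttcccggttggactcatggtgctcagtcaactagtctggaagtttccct
In the deposited annotation the COL4A1 and COL4A2 bodies overlap by 1346 bases on opposite strands, but their GENCODE exons share 0 bases. The shared stretch of COL4A1 and COL4A2 held 1 GC box and 1 CCAAT box, and that of COL4A6 and COL4A5 a pair of CCAAT boxes in opposite orientation. The whole COL4A6 window held 3 CCAAT boxes, so not all of them lie in the shared stretch.

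**Figure D3:**
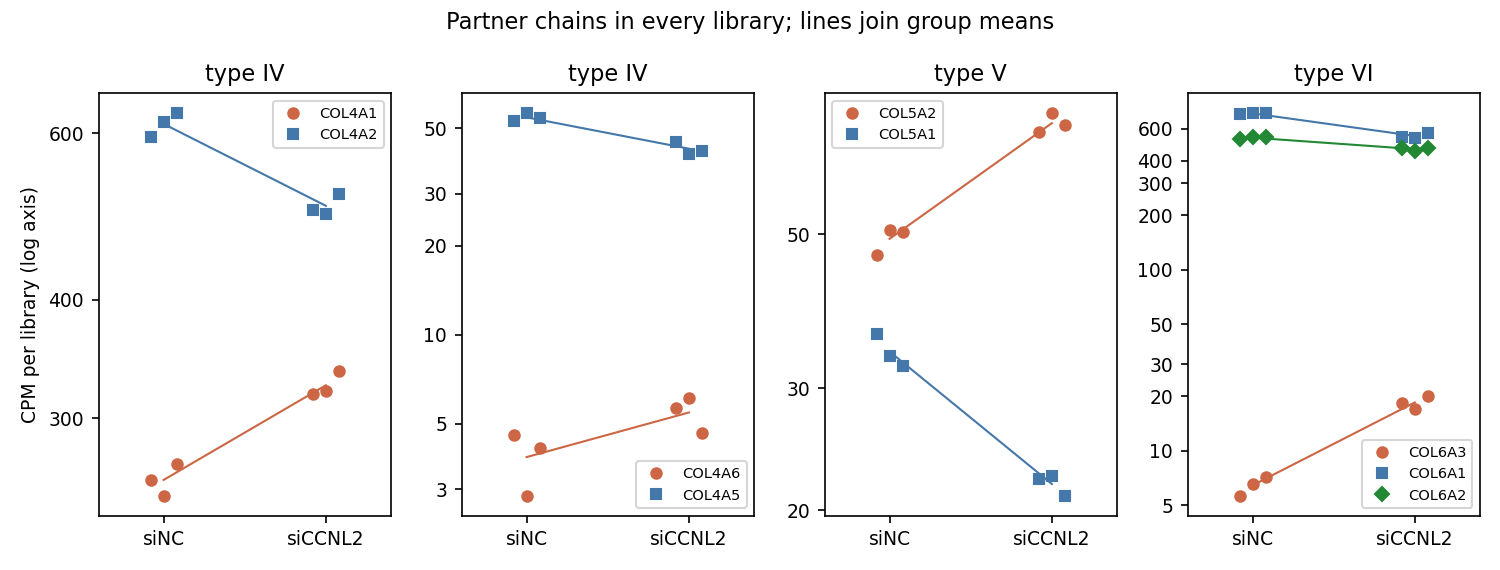
CPM (log axis) of partner chains in each of the 3 siNC and 3 siCCNL2 libraries, with lines joining group means. In each panel 1 chain rises and its partner or partners fall, for example COL5A2 from 49.2 to 72.2 and COL5A1 from 33.9 to 21.8 CPM on average.

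Among fibrillar collagens, the chains of type V diverged in the same way. Type V collagen sits inside the fibrils of the major collagens and limits their width, usually with COL5A1 and COL5A2 chains in 1 molecule. COL5A1 (chromosome 9, 134641803 to 134844843, plus strand) measured 35.9, 33.3 and 32.3 CPM in siNC and 22.2, 22.4 and 20.9 CPM in siCCNL2. It fell in all 3 (log2 fold change -0.63, SE 0.0741, adjusted p = 2.80e-07). COL5A2 (chromosome 2, 189031898 to 189225312, minus strand) measured 46.6, 50.7 and 50.3 CPM in siNC and 70.2, 74.8 and 71.7 CPM in siCCNL2, a rise without overlap (log2 fold change 0.55, SE 0.0551, adjusted p = 2.17e-08). COL3A1, which lies tail to tail with COL5A2 at a distance of 19151 bases, had 1 to 3 reads per siNC library and 0 to 2 per siCCNL2 library.

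COL1A1 was the only other fibrillar gene called. It measured 10.7, 11.5 and 11.96 CPM in siNC and 7.66, 6.47 and 7.81 CPM in siCCNL2, and its groups did not overlap (log2 fold change -0.63, SE 0.123, adjusted p = 2.82e-04). COL1A2 had 2 to 4 reads per library in both groups, so a ratio between the type I chains was not computed. COL27A1, a cartilage-associated fibrillar chain and the most abundant of the class, measured 118, 124 and 115 CPM in siNC and 126, 118 and 126 CPM in siCCNL2. Its groups overlapped (log2 fold change 0.06, SE 0.0455, adjusted p = 0.381). COL24A1 measured 9.43, 7.31 and 6.57 CPM in siNC and 8.98, 8.93 and 9.52 CPM in siCCNL2 and was not called (log2 fold change 0.23, adjusted p = 0.215). Without siNC replicate 1, its highest control, COL24A1 passed with a log2 fold change of 0.40 (adjusted p = 0.0458). COL11A2, a cartilage collagen chain, stayed below 1 CPM in every library and was not called (log2 fold change -0.74, adjusted p = 0.249).

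Ratios between partner chains were taken within each library, where scaling cancels. They were computed for a chosen set of pairs, 5 of which had both chains past the filter; other combinations, such as COL6A3 with COL6A2, were not computed. In all 5 the ratio separated the groups without overlap. Except for COL6A1 with COL6A2, the chains of each pair had already moved in opposite directions without overlap. Separation of those ratios was thus fixed by the single genes and adds no support. How often ratios of other gene pairs separate was not computed. The log2 ratio of COL6A3 to COL6A1 was -6.83 ± 0.171 in siNC and -4.89 ± 0.0753 in siCCNL2 (SD, n = 3 each), a difference of 1.94 (SE 0.108). The log2 ratio of COL5A1 to COL5A2 went from -0.54 ± 0.144 to -1.73 ± 0.0567, a difference of -1.19 (SE 0.0892). For COL4A1 to COL4A2 it went from -1.25 ± 0.0572 to -0.63 ± 0.0138, a difference of 0.62 (SE 0.0340).

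COL4A5 to COL4A6 moved from 3.85 ± 0.414 to 2.97 ± 0.214, a difference of -0.87 (SE 0.269) that carries the low counts of COL4A6. COL6A1 to COL6A2, which fell together, still shifted from 0.45 ± 0.00712 to 0.24 ± 0.0247, a difference of -0.20 (SE 0.0148). The exact two-sided permutation p was 0.1 for each of the 5 pairs, also after adjustment over the 5, and 0.1 is the smallest p that 3 against 3 libraries allow. Per length, the score ratio of COL4A1 to COL4A2 was 0.428, 0.397 and 0.419 in siNC and 0.630, 0.640 and 0.641 in siCCNL2. That of COL5A1 to COL5A2 was 0.624, 0.532 and 0.519 in siNC and 0.255, 0.242 and 0.236 in siCCNL2.

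**Figure D4:**
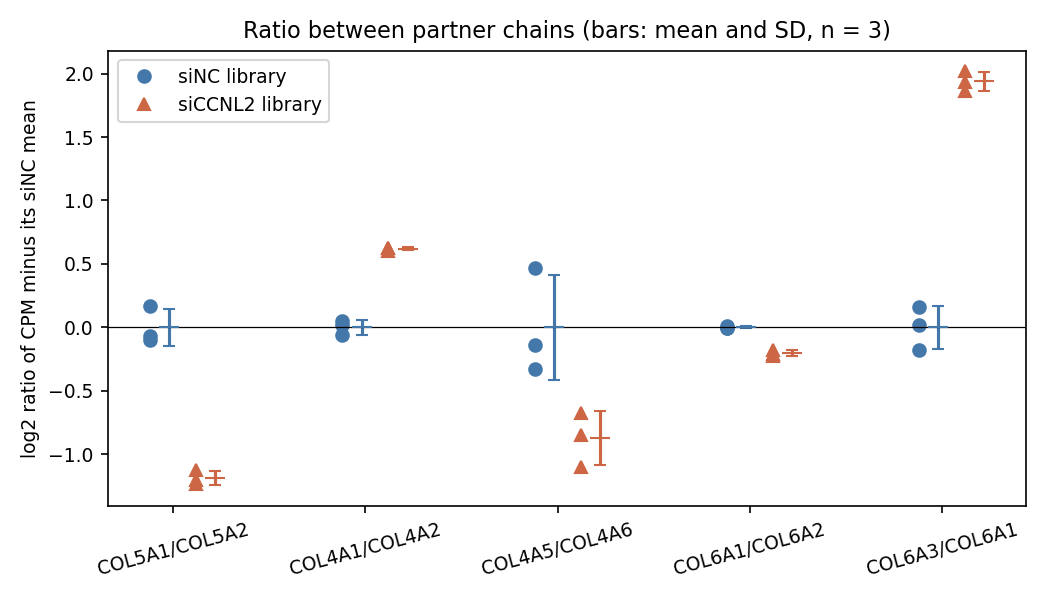
Log2 ratio of CPM between partner chains in each library, minus the siNC mean of that pair, with group means and SD (n = 3). The siCCNL2 libraries lie above the siNC libraries for COL6A3/COL6A1 (difference 1.94) and COL4A1/COL4A2 (0.62) and below them for COL5A1/COL5A2, COL4A5/COL4A6 and COL6A1/COL6A2.

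Of the 22 genes of other types, 8 were tested, of which 3 rose, 4 fell and 1 was not called. The transmembrane collagens, which are anchored in the cell surface, went both ways. COL17A1, a component of the hemidesmosomes that fasten epithelial cells to the basement membrane, measured 23.3, 21.5 and 21.2 CPM in siNC and 35.0, 33.2 and 37.0 CPM in siCCNL2. It rose without overlap (log2 fold change 0.67, SE 0.0743, adjusted p = 1.06e-07). COL13A1, found at cell adhesion sites and the neuromuscular junction, measured 28.9, 31.2 and 28.5 CPM in siNC and 25.2, 21.7 and 24.7 CPM in siCCNL2, all 3 lower (log2 fold change -0.30, adjusted p = 0.00372).

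COL7A1, which forms the anchoring fibrils below the epidermal basement membrane, measured 19.9, 19.5 and 18.3 CPM in siNC and 10.8, 10.3 and 13.3 CPM in siCCNL2. It fell in all 3 siCCNL2 libraries (log2 fold change -0.74, SE 0.104, adjusted p = 4.34e-06), so that 2 collagens of the epithelial anchoring complex, COL17A1 and COL7A1, moved in opposite directions. COL18A1, a basement membrane collagen whose end fragment is endostatin, measured 48.4, 46.9 and 49.0 CPM in siNC and 40.3, 37.8 and 34.9 CPM in siCCNL2. It was called lower (log2 fold change -0.35, adjusted p = 1.12e-04). COL18A1 shares 1401 exonic bases with SLC19A1 on the opposite strand, a gene at 61.9 CPM in siNC that was not called (log2 fold change 0.00514). The strand setting of the counting was not given in the sources used here. Whether SLC19A1 reads entered the COL18A1 counts was not tested.

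Fibril-associated collagens, which decorate fibrils without forming them, were led by COL12A1. It measured 160, 154 and 148 CPM in siNC and 202, 190 and 197 CPM in siCCNL2, a rise without overlap (log2 fold change 0.35, SE 0.0418, adjusted p = 3.79e-07). COL16A1 measured 9.96, 5.86 and 7.45 CPM in siNC and 4.27, 3.94 and 4.76 CPM in siCCNL2. Although its siNC libraries were widely spread, all lay above the siCCNL2 libraries (log2 fold change -0.84, SE 0.180, adjusted p = 6.88e-04). COL16A1 shares 117 exonic bases with an antisense gene that was too low to test. COL9A2 measured 2.65 to 3.88 CPM in siNC and 2.16 to 3.05 CPM in siCCNL2 and was not called (log2 fold change -0.27, adjusted p = 0.401).

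COL8A1, a short-chain collagen of vessel walls and the cornea, rested on few reads, 1, 2 and 8 in siNC and 12, 9 and 20 in siCCNL2. Its log2 fold change of 1.90 (SE 0.578, adjusted p = 0.0128) belongs to a gene that entered the test only through siCCNL2. COL8A1 also lost its call under 4 of the 14 alternatives that gave it an adjusted p. Its log2 fold change over these alternatives ran from 0.38 to 3.14. Among the 4 were the omissions of siNC replicate 1 (log2 fold change 1.44, adjusted p = 0.0899), siNC replicate 2 (adjusted p = 0.0791) and siCCNL2 replicate 3 (adjusted p = 0.118). Without siNC replicate 3, which held 8 of its control reads, the log2 fold change was 3.14 (adjusted p = 0.00226), so single libraries set its size.

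The 22 untested genes averaged at most 0.812 CPM in either group (COL10A1 in siNC), and COL23A1 had 0 reads in all 6 libraries. Among those with a few reads, COL25A1 had 1 read in each siNC library and 14, 3 and 4 in the siCCNL2 libraries. Without a count filter COL25A1 was the only gene of the 22 to pass the threshold (adjusted p = 0.0366). COL15A1 had 12 reads in siNC in total and 27 in siCCNL2, and COL14A1 had 3 and 13. The remaining untested genes did not pass the threshold without a filter, although some did not overlap between groups, such as COL4A3 and COL20A1 (1, 3 and 1 reads in siNC and 0 in each siCCNL2 library). No fold is given for any of the 22.

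The search by name did not use sequence, and many of the tested genes share a site for 1 microRNA family. The miR-29 family is known to repress many collagen and matrix transcripts by pairing with sites in their 3' UTRs. The 3 mature sequences (RefSeq, GRCh38.p14) are shown for their common seed, bases 2 to 8 in capitals. They lie at chr7:130876748-130876769, chr7:130877467-130877489 (1 of 2 loci, the other on chromosome 1) and chr1:207801865-207801886, all on the minus strand.
hsa-miR-29a-3p: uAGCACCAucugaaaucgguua
hsa-miR-29b-3p: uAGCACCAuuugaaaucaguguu
hsa-miR-29c-3p: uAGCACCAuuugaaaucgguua
The matching site TGGTGCT was found in the GENCODE 3' UTRs of 14 of the 22 collagen genes (63.6%), and in 13.2% of the 12026 tested genes that had such a sequence. The median UTR was 1100 bases for the 22 genes, 2546 for all genes with the site and 774 for those without. COL5A1 held 4 sites, COL4A4 held 3 and COL7A1 held 2. The site was present in 4 of the 7 genes that rose, 7 of the 10 that fell and 3 of the 5 not called. Over the 12026 genes, 25.7% of those with the site were called lower and 19.8% higher. Of those without it, 18.5% were called lower and 19.6% higher. A match is a description of sequence, and levels of miR-29 were not measured.

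A RefSeq promoter was found for 18 of the 22 tested genes, and G or C made up 40.7% (COL17A1) to 86.7% (COL18A1) of them, with a median of 64.85%, against 65.3% over the promoters of 10751 tested genes. GGGCGG occurred in 10 of the 18 (69.3% of all), CCAAT in 5 (36.4% of all) and TATAAA in 4 (5.67% of all), on either strand. TATAAA was in the windows of COL7A1, COL13A1, COL17A1 and COL6A2, of which only COL17A1 rose.

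Genes that make, process and bind collagen were counted in 7 lists. The list for folding and modification of procollagen in the endoplasmic reticulum had 24 genes, of which 10 rose, 6 fell and 8 were not called (median log2 fold change 0.09). It also holds the export genes SEC23A, SEC24D, PREB and MIA3, the receptor KDELR2 and the ion channel TMEM38B. Its counts are thus not of folding and modification enzymes alone. The called share was 66.7%, beside 33.6% of all tested genes and 49.3% of those at 20 CPM or more. In the fits on the log2 score the list had 5 genes higher and 4 lower. PLOD2, a lysyl hydroxylase that prepares collagen for crosslinking, fell most, from 641 ± 23.4 to 365 ± 7.81 CPM (log2 fold change -0.81, adjusted p = 1.13e-14). P3H4, part of a procollagen modification complex (-0.34), and the collagen chaperone SERPINH1, HSP47 (-0.34), also fell. FKBP10, a procollagen prolyl isomerase (0.48), P4HB, a subunit of prolyl 4-hydroxylase (0.47), and COLGALT2, a collagen galactosyltransferase (0.44), rose. COLGALT2 lost its call under 5 of 16 alternatives, among them the omission of siNC replicate 1 or siCCNL2 replicate 1.

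Of 12 tested genes for processing and crosslinking, 2 rose, 5 fell and 5 were not called (median -0.14). The called share was 58.3%, with 33.6% over all tested genes and 49.3% at 20 CPM or more. LOX, the lysyl oxidase that starts crosslinking, rose from 62.9 ± 1.35 to 105 ± 5.30 CPM (log2 fold change 0.74), while LOXL1, its relative (-0.73), BMP1, the C-proteinase of procollagen (-0.50), and TLL2, a relative of BMP1 (-0.76), fell. PCOLCE2, an enhancer of C-proteinase (0.21), lost its call under 7 of 16 alternatives, among them the omission of siNC replicate 2 or 3 or siCCNL2 replicate 2 or 3.

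Of 9 tested collagen receptors 3 rose, 4 fell and 2 were not called (median -0.08), or 77.8% called against 33.6% of all tested genes and 49.3% of those at 20 CPM or more. DDR2, a receptor kinase for fibrillar collagen, rose from 129 ± 1.92 to 211 ± 5.52 CPM (log2 fold change 0.71, adjusted p = 1.11e-12). ITGA2, the alpha chain of a collagen-binding integrin, fell from 267 ± 10.9 to 168 ± 5.996 CPM (-0.67, adjusted p = 4.85e-12). ADGRG6, an adhesion receptor that binds type IV collagen, rose (0.31), and ITGA1, a collagen-binding integrin chain (-0.36), and ADGRG1, a receptor of type III collagen (-0.37), fell. The call of ITGA1 was lost in both fits on the log2 score. ITGB1, the shared beta chain, had a small rise (0.09) that was lost under 5 of 16 alternatives, among them the omission of siNC replicate 2 or siCCNL2 replicate 3.

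Of 13 tested proteases and inhibitors 2 rose, 4 fell and 7 were not called (median 0.02). Their 46.2% called lay near the 43.4% of all genes at 5 CPM or more and the 49.3% at 20 CPM or more, where all tested genes gave 33.6%. MMP9 (log2 fold change -1.85, 17.6 ± 1.57 to 4.92 ± 0.470 CPM) and MMP2 (-1.84, 6.43 ± 0.312 to 1.79 ± 0.102 CPM), the gelatinases that digest denatured collagen and type IV collagen, fell, as did the inhibitor TIMP3 (-0.77). The cathepsins CTSL (0.36) and CTSB (0.20) rose. Of 15 fibril-associated proteins only 4 were expressed enough to be tested, of which SPARC, a collagen-binding matricellular protein (-0.51), and THBS1, thrombospondin (-0.34), fell. With 50% of the 4 called, this list was near the 49.3% of all genes at 20 CPM or more, beside 33.6% of all tested genes.

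Basement membrane partners of type IV collagen were mostly lower: of 13 tested genes 8 fell, 2 rose and 3 were not called (median -0.18). Called genes made up 76.9% of the list, 33.6% of all tested genes and 49.3% of those at 20 CPM or more. LAMA5, a laminin chain, fell from 291 ± 5.24 to 126 ± 10.1 CPM (log2 fold change -1.21), HSPG2, perlecan, from 251 ± 6.73 to 146 ± 9.52 CPM (-0.79), and NID1, nidogen, which links laminin to type IV collagen, from 217 ± 4.70 to 155 ± 1.88 CPM (-0.49). The rise of LAMB2, a laminin chain (0.12), was lost under 7 of 16 alternatives, such as upper-quartile factors, and it also went without siCCNL2 replicate 1 or either of siNC replicates 2 and 3.

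Of 26 regulators of collagen transcription 5 rose, 9 fell and 12 were not called (median -0.05). These 53.8% called were near the 49.3% of all genes at 20 CPM or more, with 33.6% over all tested genes. TGFBR2, the type II receptor of TGF-beta, fell from 747 ± 20.2 to 454 ± 5.83 CPM (log2 fold change -0.72, adjusted p = 3.06e-14). TGFB2 (-0.63) and CREB3L1, a transcription factor that activates COL1A1 in bone (-0.86), fell, while TGFBR1 (0.35), the inhibitor SKI (0.31) and TWIST1 (0.40) rose. Other inhibitors on the list, SMAD7 (-0.50) and SKIL (-0.13), went the other way and were called lower. TWIST1 lost its call without siNC replicate 3 or siCCNL2 replicate 2 (adjusted p at most 0.107).

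**Figure D5:**
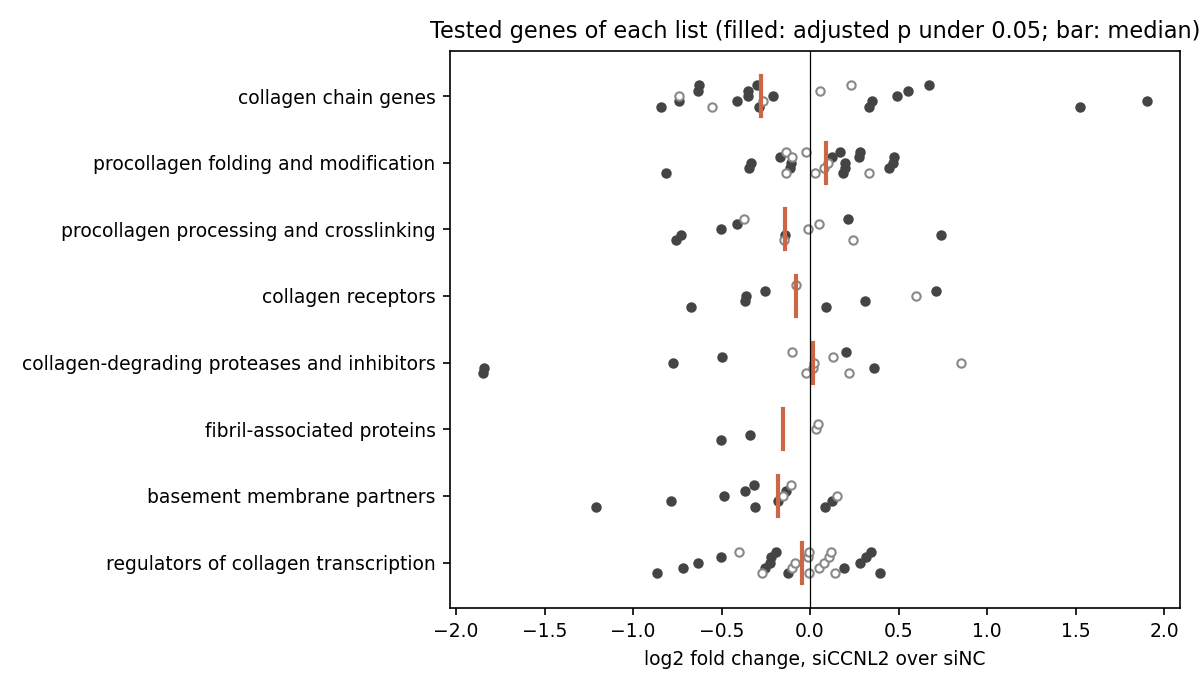
Log2 fold change of each tested gene of the collagen family and of the 7 lists of genes that make, process, bind, degrade or regulate collagen, with filled points for called genes and a bar at the median. Every list except the fibril-associated proteins holds called genes on both sides of 0, and the medians run from -0.28 (collagen chain genes) to 0.09 (folding and modification).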

How the data were processed

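The deposited table of the authors holds whole-number read counts per gene for 6 libraries (62710 rows, 60835 distinct names, each used once), and their other deposited table gives a score for each gene, TPM-like, which the authors scaled by gene length and library size. Per the submitters' processing notes, fastp 0.23.0, HISAT2, HTSeq 2.0.1 and GRCh38 were used (their order is unstated). Strand setting and annotation release: not given in the sources used here. All collagen genes, classes and lists were chosen with earlier results of these data known.

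Counts were filtered with filterByExpr, scaled by TMM and tested with edgeR 4.0.16 (glmQLFit, glmQLFTest, no covariates) in R 4.3.3, with Benjamini-Hochberg adjustment over 15346 genes. Genes were called at an adjusted p under 0.05. Standard errors are the log2 fold change over the square root of F. On data simulated for this comparison over 14978 genes, 34% of changes of 1.25-fold, 78% of 1.5-fold, 82% of 2-fold and 94% of 3-fold were recovered, with 5 false calls. In the simulation 50 genes were changed per fold, whereas 5159 genes were called in the data. Its noise was drawn from the dispersions of the same fit. The recovered shares and false calls are thus those of the simulation and not of the real comparison. Counting precision grows with depth, and SEs cover only these libraries.

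A collagen gene was described when it was fibrillar, type IV, type VI or called and the larger group mean reached 0.5 CPM; further genes were named after their values were seen. Of each list, up to 3 called genes per direction of at least 1 CPM were named; 1 gene under this rule is not reported here. Promoters came from RefSeq (GRCh38.p14) and 3' UTRs from GENCODE 29 on the same build, using the basic transcript with the longest coding sequence. Alternatives were DESeq2 1.42.0 size factors, upper-quartile or no composition factors, limma 3.58.1 (voom on counts, trend on the log2 score with pseudocounts of 1 or 0.1), DESeq2's Wald test, a filter of 1 CPM in 3 libraries or none, stricter thresholds, a replicate block, and omission of each library in turn.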

Additional observations from a re-analysis of the deposited data

How the results depend on the processing

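Of 17 called collagen genes, 15 kept their direction and their call under all 16 alternative fits in which they were run, and COL4A6 and COL8A1 did not. No collagen gene changed direction in these fits. The count of called collagen genes was 15 to 18 over these fits (15 to 17 when leaving out 1 library), and 4177 to 5234 over all genes, where leaving out 1 library gave 4177 to 4768. Requiring at least a 1.5-fold change left 7 collagen genes (3 higher, 4 lower) and 1092 genes in all (533 higher, 559 lower). Between libraries of the same replicate number, deviations from the group means correlated at 0.0432, 0.0230 and 0.0257 for replicates 1, 2 and 3. Libraries of unlike number were not compared, so these values do not settle whether the replicate numbers pair the libraries. With the replicate block 17 collagen genes (7 higher, 10 lower) and 5234 genes were called. On log2 of the score plus 1 or 0.1, 9 genes of the folding and modification list were called in place of 16. An adjusted p under 0.01 left 7 of them and a 1.5-fold limit 1. The median of all genes shifted by -0.0184 with upper-quartile factors and by less in size with every other setting run.

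Summed class levels depend on the most abundant chain and the unit. The log2 ratio of the sum over all collagen genes was -0.21 on the score, -0.14 in CPM and -0.11 without COL6A1. For type IV it was -0.10 and turned to 0.22 without COL4A2, and for type VI it was -0.32 and became -0.21 without COL6A1. For the other types it was 0.03, became 0.14 in CPM and turned to -0.16 without COL12A1 and to -0.01 without siCCNL2 replicate 1 (-0.00858 to 0.0793 when leaving out 1 library). The ratios between partner chains kept their direction without each library. Depth limits the 22 collagen genes under the count filter, which had at most 40 reads per group in total.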
